A study of Homo sapiens with 18 samples.

Results

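Interferon-stimulated genes encode the antiviral effectors, sensors and regulators that a cell switches on when interferon reaches it. A set of 42 such genes, given by name and with RIGI also known as DDX58, was followed through RNA sequencing of human colorectal cancer cells of the LoVo and DLD-1 lines, in which LIN28B, an RNA-binding protein that blocks maturation of let-7 microRNAs, had been forced. All 42 were found among the 61806 genes listed. Of these, 40 passed the filter on low values, which asked for at least 1 TPM (transcripts scaled by length and library total) in at least 3 of 18 libraries and kept 18537 genes, and counts of called genes below run over those 40. IFI44L and SAMD9L did not pass. XAF1, IFI44 and OAS2 passed through the LoVo EV libraries alone and were under 1 TPM in all others, so a difference from LoVo EV was built into their choice, and counts against LoVo EV are also given over the other 37 genes. The 6 groups of 3 libraries each were LoVo-labelled LIN28B cells with alpelisib, LoVo-labelled LIN28B cells without it, LoVo cells with an empty vector (EV), DLD-1 LIN28B cells with alpelisib, DLD-1 LIN28B cells without it and DLD-1 EV cells. Alpelisib blocks the p110-alpha catalytic subunit of PI3K and was added at 5 µM. How long it was left on, what the untreated cells received, whether a line was a clone or a pool, and whether replicates were separate cultures is not stated in the labels. The p-values therefore describe the spread among these libraries alone, and that spread may be technical.

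As background, type I and type III interferons bind receptors that activate JAK1 and TYK2. These kinases act on STAT proteins, among them STAT2, which joins IRF9 in the complex ISGF3, and this complex binds interferon-stimulated response elements in the promoters of the genes described here. Their products block viral entry (the IFITM proteins), bind viral RNA (the IFIT proteins), trap nucleocapsids (MX1 and MX2), activate RNase L (the OAS enzymes), tether virions at the cell surface (BST2) or attach the small protein ISG15 to other proteins (UBE2L6 and HERC5).

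LIN28B itself was at 706, 682 and 674 TPM in libraries labelled LoVo LIN28B, against 4.91, 3.66 and 3.87 TPM in LoVo EV. In DLD-1 it was at 493, 483 and 408 TPM in LIN28B libraries, against 2.74, 1.17 and 1.38 TPM in EV. Alpelisib-treated cells had less of it than untreated LIN28B cells, at 146, 160.3 and 155 TPM under the LoVo label and 149.7, 139 and 141 TPM in DLD-1. The libraries labelled LoVo LIN28B stood apart from LoVo EV across all genes, and their cell line could not be checked. Pearson's r of log2(TPM + 1) across genes, which are not independent replicates, was 0.9522 to 0.9636 between them and LoVo EV and 0.9825 to 0.9842 between them and DLD-1 LIN28B. Within groups it was 0.9828 to 0.9909, and between LoVo EV and DLD-1 EV 0.9503 to 0.9630. Differences of LoVo-labelled LIN28B groups from LoVo EV therefore rest on the labels, and LIN28B and the identity of the cells cannot be told apart in them. Mitochondrially encoded genes took 5.90% to 8.68% of TPM in LoVo-labelled LIN28B libraries and 6.53% to 9.81% with alpelisib, against 12% to 19.8% in LoVo EV. Their share in DLD-1 was 9.26% to 13.8% with alpelisib, 8.96% to 9.41% in LIN28B and 7.92% to 10.1% in EV. EPCAM, which marks epithelium, was at 456 TPM or more in all 18 libraries. MS4A1, CLEC4C and LILRA4, of B cells and plasmacytoid dendritic cells, were listed at 0 in all of them. The 8 epithelial markers summed on average to 7372 TPM in LoVo EV and to 9454 TPM or more in the other groups. Of 12 leukocyte markers, 1 to 3 reached 1 TPM in each library. They averaged 14.4 TPM in sum in LoVo EV and 4.31 to 7.23 TPM elsewhere. The 8 fibroblast and endothelial markers averaged 12.3 TPM in sum in LoVo EV and 4.26 to 8.16 TPM elsewhere. The part of these sums in the differences below was not tested.

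The promoters held the response element core to different extents. The core searched was GAAA, then any 2 bases, then GAAA, on both strands, in windows of 250 bases before to 50 after each start from RefSeq (GRCh38.p14). A window was given for 34 of the 42 genes, and 22 of those (64.7%) held the core, against 4.38% of the 27305 genes of the table. At least 2 matches were found in 13 of the 34, against 0.311% of all genes. A match describes letters and shows no binding, and a window without one says only that these letters are not in it. Shown here for 8 genes that behaved differently in these cells are the last 150 bases before the start, 5′ to 3′ on the gene's strand, with matches in capitals (TTTC, 2 bases, TTTC where the core lies on the other strand).
ISG15, chr1:1013347-1013496, plus strand: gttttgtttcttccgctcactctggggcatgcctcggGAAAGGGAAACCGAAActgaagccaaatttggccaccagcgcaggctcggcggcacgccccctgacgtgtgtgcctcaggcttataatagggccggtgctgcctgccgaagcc
IFI6, chr1:27672193-27672342, minus strand: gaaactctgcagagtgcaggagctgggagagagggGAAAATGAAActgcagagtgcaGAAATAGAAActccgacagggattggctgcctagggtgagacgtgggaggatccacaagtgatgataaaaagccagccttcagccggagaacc
BST2, chr19:17405631-17405780, minus strand: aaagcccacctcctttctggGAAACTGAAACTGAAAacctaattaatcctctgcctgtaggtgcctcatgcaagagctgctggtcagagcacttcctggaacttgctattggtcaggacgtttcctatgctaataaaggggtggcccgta
IFI27, chr14:94110586-94110735, plus strand: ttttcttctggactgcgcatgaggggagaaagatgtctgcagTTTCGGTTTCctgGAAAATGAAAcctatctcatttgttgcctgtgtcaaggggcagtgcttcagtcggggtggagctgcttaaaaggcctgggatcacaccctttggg
IFIT1, chr10:89392473-89392622, plus strand: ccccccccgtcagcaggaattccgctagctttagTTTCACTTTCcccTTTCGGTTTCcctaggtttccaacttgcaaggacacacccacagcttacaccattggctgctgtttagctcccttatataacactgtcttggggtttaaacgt
OAS3, chr12:112938324-112938473, plus strand: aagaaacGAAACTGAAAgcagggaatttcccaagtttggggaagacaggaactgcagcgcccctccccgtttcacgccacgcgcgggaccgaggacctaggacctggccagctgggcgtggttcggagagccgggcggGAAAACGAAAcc
IFITM1, chr11:313890-314039, plus strand: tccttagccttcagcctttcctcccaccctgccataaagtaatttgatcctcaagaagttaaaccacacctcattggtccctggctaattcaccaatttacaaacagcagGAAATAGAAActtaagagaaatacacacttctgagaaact
UBE2L6, chr11:57567936-57568085, minus strand, no match: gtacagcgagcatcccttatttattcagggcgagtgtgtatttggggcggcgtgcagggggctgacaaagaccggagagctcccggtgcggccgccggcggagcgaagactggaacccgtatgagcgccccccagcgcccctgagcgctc

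The 42 genes spanned a wide range of levels, which may be set side by side because TPM is scaled by length. IFITM2 and IFITM3, which restrict entry of enveloped viruses, lay between 294 and 671 TPM in every library, and 30 of the 42 genes reached 1 TPM in all 18. The summed level averaged 1694 ± 86.5 TPM in LoVo-labelled LIN28B cells with alpelisib, 1637 ± 49.3 TPM without it and 2807 ± 80.2 TPM in LoVo EV (SD, n = 3 each). In DLD-1 it averaged 1875 ± 62.6 TPM in LIN28B cells with alpelisib, 1748 ± 101 TPM without it and 1875 ± 43.1 TPM in EV (SD, n = 3 each). LoVo EV thus held the highest sum. Without IFITM1 to IFITM3 the other 39 genes summed to 594 ± 33.7, 620 ± 9.32 and 1713 ± 74.0 TPM in the 3 LoVo-labelled groups in that order. The same 39 genes summed to 754 ± 28.1 TPM in DLD-1 LIN28B cells with alpelisib, 834 ± 21.3 TPM without it and 965 ± 30.1 TPM in DLD-1 EV. A separate list of 37 other interferon-stimulated genes outside the set had its lowest sum in LoVo EV. It averaged 687 TPM there, 1214 TPM in LoVo-labelled LIN28B cells and 760 to 1139 TPM in the DLD-1 groups. IFI44, IFI44L, BST2, XAF1 and SAMD9L were listed at 0 in at least 1 library. In RNA of a whole culture, fewer cells that express a gene and less RNA in each cell cannot be told apart. IFITM1 and IFITM2 overlap on the same strand and IFITM1 to IFITM3 are close in sequence, so the split of reads among them is uncertain. IRF9 overlaps another protein-coding gene on the same strand, so its share of reads is uncertain too. PARP9 overlaps DTX3L, and IFIT1, IFIT2 and IFIT3 overlap LIPA, on opposite strands, and the labels do not say whether counting used strand. IRF1, SP110 and TRIM25 also overlap other protein-coding genes.

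**Figure D1:**
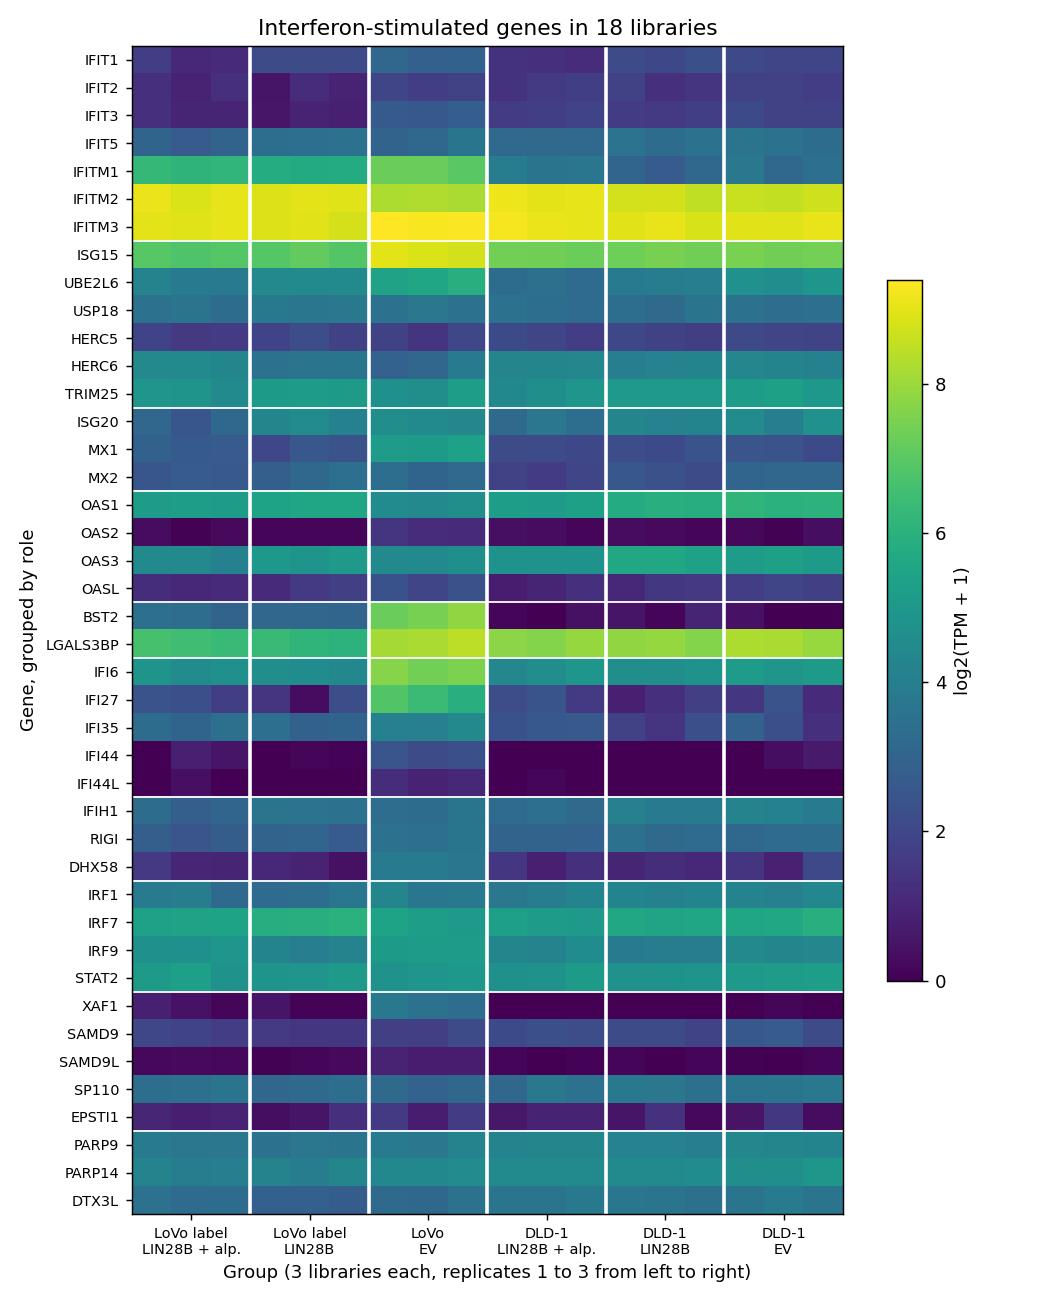
Levels of the 42 genes (rows, grouped by role) in the 18 libraries (columns, 3 per group) as log2(TPM + 1), from dark violet at 0 to yellow at the top of the scale. LoVo EV is brighter than the other groups in MX1, BST2, IFI6, IFI27, DHX58 and XAF1, and IFITM2 and IFITM3 are bright throughout.

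Few of these genes were called with LIN28B in DLD-1, though at a larger share than among all genes. Of 40, 3 (7.5%) were called at an adjusted p under 0.05, 0 higher and 3 lower, where 2.53% of all genes tested were called, 1.21% higher and 1.32% lower. UBE2L6, the enzyme that carries ISG15 to its targets, stood at 13.8, 14.4 and 15.4 TPM in LIN28B cells, against 26.2, 23.5 and 29.2 TPM in EV cells. The groups did not overlap, and UBE2L6 was 1.81-fold lower on average and fell on the log2(TPM + 1) scale by 0.81 (SE 0.13, adjusted p = 0.00345). MX2, which restricts retroviruses, stood at 4.89, 3.97 and 3.48 TPM in LIN28B cells, against 7.39, 7.53 and 7.56 TPM in EV cells, and fell by 0.74 (SE 0.15, adjusted p = 0.0184). IRF9, the DNA-binding subunit of ISGF3, stood at 13.3, 14.6 and 14.7 TPM in LIN28B cells, against 20.7, 18.7 and 19.5 TPM in EV cells, and fell by 0.44 (SE 0.10, adjusted p = 0.0337). In both genes every LIN28B library lay below every EV library. UBE2L6 was called whichever of the 6 libraries was left out (adjusted p 0.00809 to 0.0232), IRF9 with none left out only (0.0768 to 0.139 without 1), and MX2 without LIN28B replicate 1 (0.0235) but not without any of the other 5 (0.0579 to 0.087).

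The other genes were not called in DLD-1. ISG15, the ubiquitin-like modifier, stood at 161, 174 and 163 TPM in LIN28B cells, against 182, 162 and 172 TPM in EV cells, and the groups overlapped (log2 change -0.05, SE 0.09, adjusted p = 0.88). IFIT1 had a log2 change of 0.19 (SE 0.16), MX1 of -0.07 (SE 0.15), IFI6 of -0.38 (SE 0.14) and IFI27 of -0.37 (SE 0.43). The RNA sensors IFIH1 and RIGI had changes of -0.12 (SE 0.13) and 0.08 (SE 0.13). Of the transcription factors, IRF1 had a change of -0.03 (SE 0.20), IRF7 of -0.13 (SE 0.11) and STAT2 of -0.34 (SE 0.12). IFITM1 had a change of -0.49 (SE 0.15), IFITM2 of 0.07 (SE 0.09) and IFITM3 of -0.04 (SE 0.08). BST2 stayed under 1 TPM in all 6 libraries. The median change was -0.13 over the 40 genes, beside 0.02 over all genes tested. Without overlap between groups stood 14 of the 40, the 3 called genes among them, where 22.8% of all genes tested did not overlap.

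**Figure D2:**
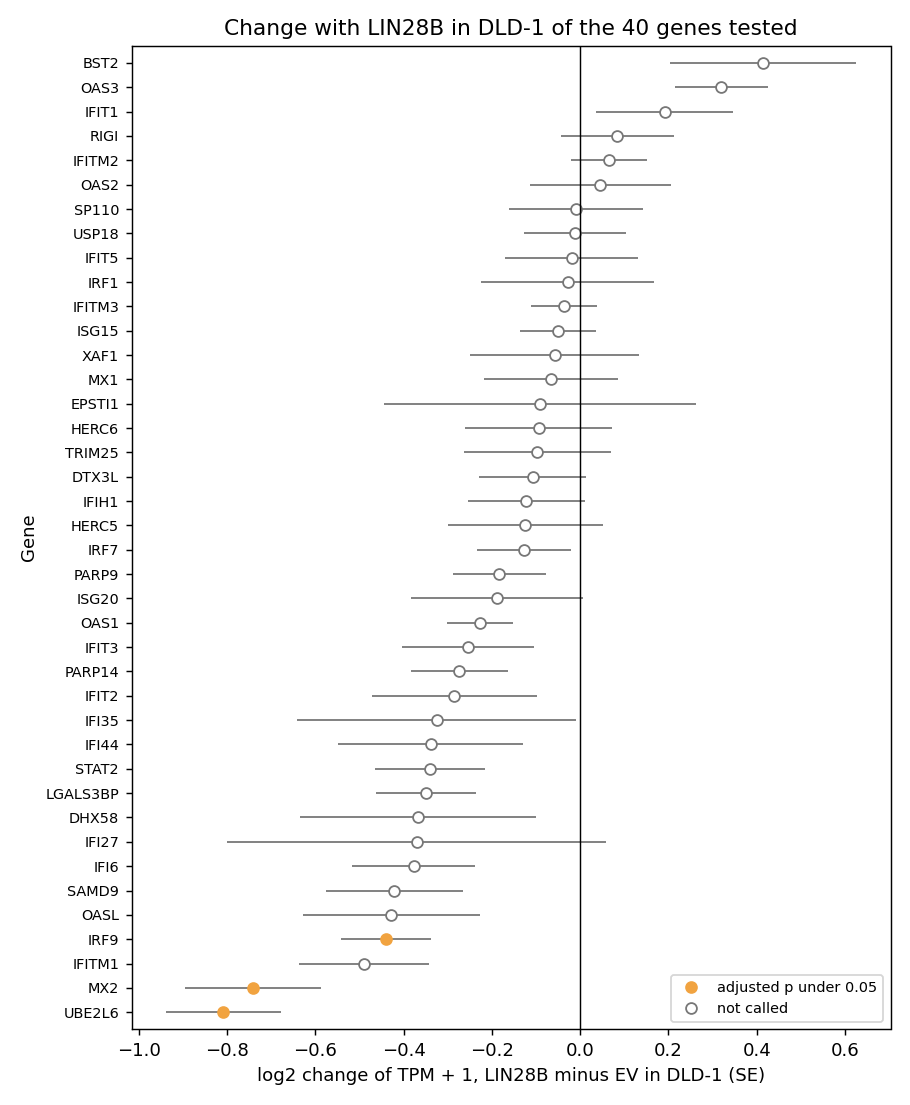
Change of the 40 genes tested with LIN28B in DLD-1 on the log2(TPM + 1) scale (x axis, LIN28B minus EV, bars are SE), ordered by size. Filled points passed an adjusted p of 0.05 and are UBE2L6, MX2 and IRF9, all left of 0.

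Of the pathway lists outside the set, those of receptors, sensors and negative regulators held no called gene with LIN28B in DLD-1, and that of antigen presentation held 5. Over all genes tested 2.53% were called, 1.21% higher and 1.32% lower. At that share a list of 9 to 13 genes often holds no call, so its absence says little about these lists. Of 11 receptors, kinases and STATs tested none rose and none fell, and of 13 nucleic acid sensors and adaptors none rose and none fell. JAK1 had a log2 change of -0.08 (SE 0.14), IFNAR1 of -0.06 (SE 0.14), CGAS of 0.04 (SE 0.17) and STING1 of -0.04 (SE 0.11). Of 9 negative regulators none rose and none fell. Of 15 genes of MHC class I and peptide loading none rose and 5 fell. PSMB8, a catalytic subunit of the immunoproteasome, fell by 0.43 (SE 0.09, adjusted p = 0.0177) and HLA-B, a class I heavy chain, fell by 0.58 (SE 0.13, adjusted p = 0.0269). PSMB9, another immunoproteasome subunit, fell by 0.61 (SE 0.15, adjusted p = 0.0379), and HLA-C, another class I heavy chain, fell by 0.40 (SE 0.10, adjusted p = 0.0384). These calls rested on all 6 libraries: PSMB9 (0.0827 to 0.128), HLA-B (0.0654 to 0.103) and HLA-C (0.075 to 0.152) lost theirs whichever 1 was left out, and PSMB8 lost its own without EV replicate 1 or 3 or LIN28B replicate 1 or 3 (0.0502 to 0.0851). With no filter HLA-B, HLA-C and PSMB9 were not called either (0.0551 to 0.0741). Of 30 other interferon-stimulated genes none rose and 2 fell: SHFL, which blocks ribosomal frameshifting, fell by 0.63 (SE 0.11, adjusted p = 0.00564) and the guanylate-binding protein GBP3 fell by 0.81 (SE 0.20, adjusted p = 0.0464). The call of GBP3 was lost without any of 5 of the 6 libraries, LIN28B replicate 3 being the exception (0.103 to 0.192), and with no filter (0.0997).

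With alpelisib part of the set was lower and another part higher in LIN28B cells of both labels. LIN28B itself was also lower in the treated cells, as given above. Alpelisib and the lower LIN28B therefore cannot be told apart in these comparisons. In DLD-1, 12 of 40 were called, 3 higher and 9 lower, where 31% of all genes tested were called, 9.05% higher and 21.9% lower. Under the LoVo label 15 were called, 6 higher and 9 lower, where 39.7% of all genes tested were called, 15.1% higher and 24.6% lower. The shares of the 40 genes called, 30% and 37.5%, were near these backgrounds. Lower in both were IFIH1, IFIT1, IRF7, ISG20, MX2, OAS1, OAS3 and UBE2L6, 8 genes, where 16.7% of all genes tested were lower in both. Higher in both were IFITM1 and IRF9, where 6.65% of all genes tested were. The median change over all genes was -0.09 in DLD-1 and -0.06 under the LoVo label, and became 0.02 and 0.04 in that order after median-of-ratios scaling. The split of the 40 was then 5 higher and 6 lower in DLD-1 and 9 higher and 7 lower under the LoVo label. Over all genes tested, 14.5% were then higher and 15.2% lower in DLD-1, and 19.95% higher and 19.6% lower under the LoVo label.

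IFIT1, which binds viral RNA lacking host cap methylation, stood at 1.59, 1.47 and 1.28 TPM with alpelisib in DLD-1, against 3.60, 3.15 and 3.96 TPM untreated. Its LoVo-labelled libraries had 2.24, 1.07 and 1.19 TPM with alpelisib, against 3.43, 3.43 and 3.39 TPM untreated. Neither pair of groups overlapped, and IFIT1 fell by 0.90 (SE 0.16, adjusted p = 0.000575) in DLD-1 and by 0.85 (SE 0.16, adjusted p = 0.00046) under the LoVo label. ISG20, an RNA exonuclease, stood at 8.62, 12.1 and 9.43 TPM with alpelisib in DLD-1, against 19, 16.8 and 17.9 TPM untreated. The LoVo-labelled values of ISG20 were 7.59, 4.75 and 7.99 TPM with alpelisib, against 18.6, 22.4 and 16.7 TPM untreated. All treated libraries lay below all untreated ones, and ISG20 fell by 0.78 (SE 0.19, adjusted p = 0.00663) in DLD-1 and by 1.40 (SE 0.19, adjusted p = 4.57e-05) under the LoVo label.

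OAS3, which makes the 2-5A activator of RNase L, stood at 26.9, 27.1 and 27.2 TPM with alpelisib in DLD-1, against 49.1, 47.4 and 40.9 TPM untreated. LoVo-labelled cells had 21, 20.4 and 16.3 TPM of OAS3 with alpelisib, against 31.5, 28.1 and 31.9 TPM untreated. It was 1.69-fold lower on average in DLD-1 and 1.59-fold lower under the LoVo label, a fall by 0.73 (SE 0.10, adjusted p = 0.000142) and by 0.65 (SE 0.10, adjusted p = 0.000169). OAS1, an enzyme of the same family, stood at 37.4, 35.8 and 39.6 TPM with alpelisib in DLD-1, against 53.7, 58.6 and 56.4 TPM untreated, and fell by 0.57 (SE 0.07, adjusted p = 6.59e-05). Its LoVo-labelled fall by 0.28 (SE 0.07, adjusted p = 0.00654) was not called under median-of-ratios scaling (adjusted p = 0.109). IFIH1, the sensor MDA5 of long double-stranded RNA, stood at 8.71, 9.81 and 8.53 TPM with alpelisib in DLD-1, against 15.9, 13.3 and 14.2 TPM untreated, and under the LoVo label at 8.98, 6.19 and 7.41 TPM with alpelisib, against 11.3, 11 and 10.7 TPM untreated. It fell by 0.62 (SE 0.13, adjusted p = 0.00239) in DLD-1 and by 0.50 (SE 0.13, adjusted p = 0.0065) under the LoVo label. UBE2L6 stood at 8.93, 10.1 and 8.86 TPM with alpelisib in DLD-1, against 13.8, 14.4 and 15.4 TPM untreated, and under the LoVo label at 17.6, 13.5 and 13.9 TPM with alpelisib, against 20.2, 20.8 and 21.4 TPM untreated. It fell by 0.60 (SE 0.13, adjusted p = 0.00278) in DLD-1 and by 0.45 (SE 0.13, adjusted p = 0.0108) under the LoVo label.

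MX2 and IRF7 fell in both with less margin. MX2 stood at 2.51, 2.17 and 2.85 TPM with alpelisib in DLD-1, against 4.89, 3.97 and 3.48 TPM untreated, and fell by 0.54 (SE 0.15, adjusted p = 0.0147), and under the LoVo label it fell by 0.52 (SE 0.15, adjusted p = 0.014). Its calls were lost under median-of-ratios scaling (adjusted p = 0.057 and 0.0534), in DLD-1 without LIN28B replicate 1 (0.0753) or alpelisib replicate 2 (0.0606), and under the LoVo label without LIN28B replicate 3 (0.0844) or alpelisib replicate 1 (0.0516). IRF7, the factor that amplifies interferon production, stood at 38.1, 35.4 and 33.1 TPM with alpelisib in DLD-1, against 48.2, 43.7 and 45.4 TPM untreated, and under the LoVo label at 40.9, 41.3 and 43.2 TPM with alpelisib, against 57.3, 60.2 and 62.3 TPM untreated. IRF7 fell by 0.36 (SE 0.11, adjusted p = 0.0178) in DLD-1 and by 0.51 (SE 0.11, adjusted p = 0.00131) under the LoVo label. Its call in DLD-1 was lost under median-of-ratios scaling (0.271), after rescaling without mitochondrially encoded genes (0.0797), without LIN28B replicate 1 (0.0689) and without alpelisib replicate 3 (0.0655). RIGI, the sensor of viral RNA ends, fell by 0.37 (SE 0.13, adjusted p = 0.0389) in DLD-1 and had a change of -0.22 (SE 0.13) under the LoVo label. That DLD-1 call of RIGI was lost without any of 5 of the 6 libraries, LIN28B replicate 2 being the exception (0.058 to 0.159), under median-of-ratios scaling (0.175) and with no filter (0.0585).

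Among the genes that rose was a subunit of ISGF3. IRF9 stood at 19.1, 17.2 and 22.7 TPM with alpelisib in DLD-1, against 13.3, 14.6 and 14.7 TPM untreated, and under the LoVo label at 25.4, 24.9 and 29.3 TPM with alpelisib, against 17.9, 15.3 and 17.2 TPM untreated. Neither pair overlapped, and IRF9 rose by 0.44 (SE 0.10, adjusted p = 0.00486) in DLD-1 and by 0.63 (SE 0.10, adjusted p = 0.00018) under the LoVo label. IFITM1, which restricts viruses at the cell surface, stood at 14.8, 11.1 and 11.8 TPM with alpelisib in DLD-1, against 7.28, 5.45 and 7.91 TPM untreated, and rose by 0.79 (SE 0.15, adjusted p = 0.00101). LoVo-labelled cells had 75.9, 68.8 and 71.4 TPM of IFITM1 with alpelisib, against 55.0, 52.2 and 53.5 TPM untreated, a rise by 0.42 (SE 0.15, adjusted p = 0.0325). This second call was lost without any of 5 of the 6 libraries, alpelisib replicate 2 being the exception (0.0607 to 0.0903), and with no filter (0.0619). IFITM2 stood at 574, 508 and 533 TPM with alpelisib in DLD-1, against 426, 441 and 360.3 TPM untreated, and rose by 0.40 (SE 0.09, adjusted p = 0.00249), with a change of 0.08 (SE 0.09) under the LoVo label. IFITM3 had changes of 0.19 (SE 0.08) in DLD-1 and 0.11 (SE 0.08) under the LoVo label. It was called higher in both under median-of-ratios scaling (adjusted p = 0.00716 and 0.0382), and in DLD-1 also without LIN28B replicate 2 (0.0388) or alpelisib replicate 3 (0.0429).

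Other genes were called under the LoVo label. HERC6, a HECT ubiquitin ligase, stood at 20.6, 21.7 and 19 TPM with alpelisib, against 10.2, 11.4 and 11.5 TPM untreated, and rose by 0.83 (SE 0.17, adjusted p = 0.000969), with a change of 0.17 (SE 0.17) in DLD-1. DTX3L, the ubiquitin ligase that pairs with PARP9, stood at 10.5, 8.73 and 9.09 TPM with alpelisib, against 6.41, 6.43 and 5.84 TPM untreated, and rose by 0.53 (SE 0.12, adjusted p = 0.00258). IFIT5, an RNA-binding relative of IFIT1, stood at 7.14, 5.56 and 6.96 TPM with alpelisib, against 9.64, 9.79 and 10.2 TPM untreated, and fell by 0.53 (SE 0.15, adjusted p = 0.00969). In these 3 genes the groups did not overlap. MX1 stood at 6.47, 5.36 and 5.56 TPM with alpelisib, against 2.96, 4.81 and 4.28 TPM untreated, and rose by 0.45 (SE 0.15, adjusted p = 0.0259), a call lost without LIN28B replicate 1 (0.147) or alpelisib replicate 1 (0.0921) and in a fit of only these groups (0.0761). LGALS3BP, a secreted glycoprotein, stood at 99.7, 90.3 and 81.1 TPM with alpelisib, against 78.4, 68.9 and 65.8 TPM untreated, and rose by 0.34 (SE 0.11, adjusted p = 0.024), a call lost without LIN28B replicate 2 or 3 or alpelisib replicate 1 or 2 (0.0541 to 0.101).

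None of the 40 genes was called by limma for a difference of the alpelisib effect between the LoVo label and DLD-1, where 0.847% of all genes tested were called, 0.637% higher and 0.21% lower, and 8 of the 40 had an unadjusted p under 0.05. The difference was 0.66 for HERC6 (SE 0.24, adjusted p = 0.234), -0.61 for ISG20 (SE 0.28) and 0.05 for IFIT1 (SE 0.22). ISG15 was not called with alpelisib, at 165, 163 and 155 TPM in DLD-1, against 161, 174 and 163 TPM untreated, with log2 changes of -0.04 (SE 0.09) there and -0.08 (SE 0.09) under the LoVo label. IFI6 had changes of -0.07 (SE 0.14) and 0.18 (SE 0.14) in the same order, BST2 of -0.36 (SE 0.21) and 0.19 (SE 0.21), STAT2 of 0.07 (SE 0.12) and 0.12 (SE 0.12), and IRF1 of -0.23 (SE 0.20) and 0.23 (SE 0.20). IFI27 had changes of 0.77 (SE 0.43) and 0.83 (SE 0.43), and was called higher under the LoVo label without LIN28B replicate 3 (adjusted p = 0.0266).

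**Figure D3:**
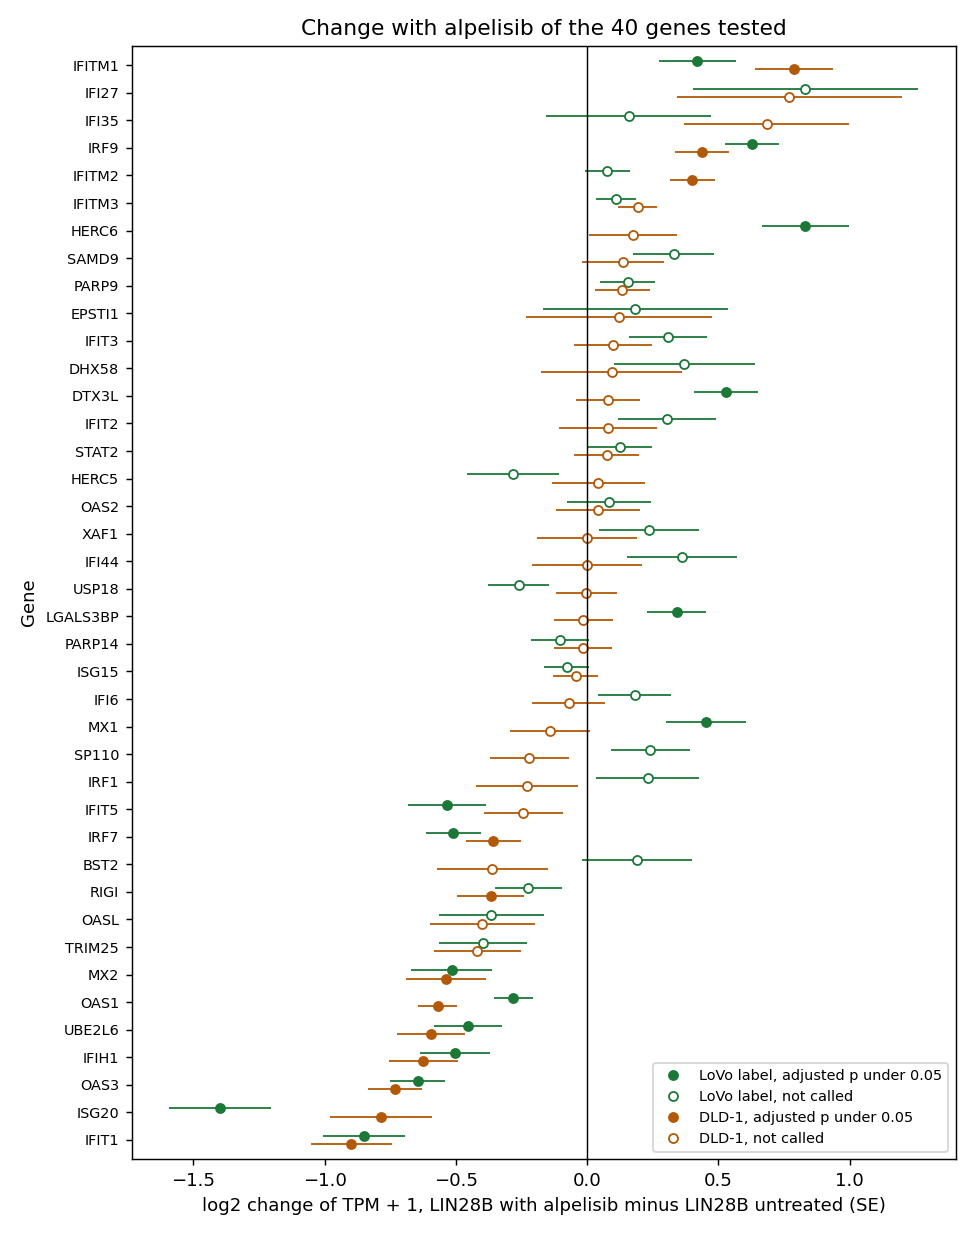
Change of the 40 genes tested with alpelisib on the log2(TPM + 1) scale (x axis, LIN28B with alpelisib minus LIN28B untreated, bars are SE) for LoVo-labelled (green) and DLD-1 (brown) cells, with filled points at an adjusted p under 0.05. IFIT1, ISG20, OAS3, IFIH1, UBE2L6, OAS1, MX2 and IRF7 are filled left of 0 for both, IRF9 and IFITM1 right of 0 for both, and HERC6, DTX3L, MX1, LGALS3BP and IFIT5 for the LoVo label alone.

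With alpelisib, IFNAR1 fell and STING1 rose in cells of both labels. Of 11 receptors, kinases and STATs none rose and 6 fell in DLD-1 and none rose and 3 fell under the LoVo label. Over all genes tested 9.05% rose and 21.9% fell in DLD-1, and 15.1% rose and 24.6% fell under the LoVo label. The share of receptors that fell under the LoVo label was near that of all genes. With median-of-ratios scaling none rose and 4 fell in DLD-1 and 1 rose and 2 fell under the LoVo label. That scaling gave 15.2% of all genes tested lower in DLD-1 and 19.6% under the LoVo label. IFNAR1, a chain of the type I interferon receptor, stood at 28.9, 32.0 and 35.2 TPM with alpelisib in DLD-1, against 57.3, 51.2 and 53.3 TPM untreated, and fell by 0.74 (SE 0.14, adjusted p = 0.000951). Under the LoVo label IFNAR1 fell by 0.83 (SE 0.14, adjusted p = 0.000187). JAK1 fell by 0.44 (SE 0.14, adjusted p = 0.023) in DLD-1, a call lost without any of 5 of the 6 libraries, alpelisib replicate 2 being the exception (0.0504 to 0.117), and under median-of-ratios scaling (0.0811), and had a change of -0.31 (SE 0.14) under the LoVo label. Of 13 sensors and adaptors 1 rose and 3 fell in DLD-1 and 2 rose and 4 fell under the LoVo label. These counts were near the shares of all genes. STING1, the adaptor of cytosolic DNA sensing, stood at 42.6, 50.9 and 45.9 TPM with alpelisib in DLD-1, against 29.9, 26.7 and 25.4 TPM untreated, and rose by 0.74 (SE 0.11, adjusted p = 0.000182), and under the LoVo label it rose by 0.96 (SE 0.11, adjusted p = 7.47e-06). CGAS, the DNA sensor that signals to STING1, rose by 0.63 (SE 0.17, adjusted p = 0.00884) under the LoVo label and had a change of 0.19 (SE 0.17) in DLD-1. EIF2AK2, the kinase PKR, fell by 0.84 (SE 0.18, adjusted p = 0.00215) in DLD-1 and by 1.02 (SE 0.18, adjusted p = 0.000293) under the LoVo label.

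Of 9 negative regulators none rose and 3 fell in DLD-1 and 1 rose and 3 fell under the LoVo label. Over all genes tested 9.05% rose and 21.9% fell in DLD-1, and 15.1% rose and 24.6% fell under the LoVo label. The list counts in this paragraph stood near these shares, and no test of a list was run. SOCS1, an inhibitor of JAK kinases, stood at 5.18, 5.87 and 4.19 TPM with alpelisib under the LoVo label, against 1.14, 1.18 and 1.67 TPM untreated, and rose by 1.38 (SE 0.23, adjusted p = 0.000255), with a change of -0.27 (SE 0.23) in DLD-1. The difference between the labels was called for SOCS1 (1.65, SE 0.33, adjusted p = 0.0256), and was lost without replicate 1 or 2 of any of the 4 groups (0.0534 to 0.0782) and with no filter (0.0625). Of 15 genes of MHC class I and peptide loading 2 rose and 2 fell in DLD-1 and 3 rose and 3 fell under the LoVo label, with the immunoproteasome subunit PSMB8 higher in both (0.45 and 0.59, SE 0.09 each). Of 30 other interferon-stimulated genes 2 rose and 7 fell in DLD-1 and 6 rose and 9 fell under the LoVo label. RBCK1, a subunit of the linear ubiquitin ligase, fell by 1.10 (SE 0.08, adjusted p = 1.54e-07) in DLD-1 and by 1.13 (SE 0.08, adjusted p = 5.09e-08) under the LoVo label, while SHFL rose by 0.54 (SE 0.11, adjusted p = 0.00148) and by 0.67 (SE 0.11, adjusted p = 0.000153).

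UBE2L6, MX2 and ISG20 were the members farthest below EV among those called in DLD-1 LIN28B cells with alpelisib. Of 40 genes, 13 (32.5%) were called, 1 higher and 12 lower, where 29.9% of all genes tested were called, 9.71% higher and 20.2% lower, and the total share was near that background. This comparison shares its EV libraries with that of LIN28B alone and its treated libraries with that of alpelisib. UBE2L6 stood at 8.93, 10.1 and 8.86 TPM in LIN28B cells with alpelisib, against 26.2, 23.5 and 29.2 TPM in EV cells, 2.83-fold lower on average, and fell by 1.40 (SE 0.13, adjusted p = 2.04e-06). MX2 stood at 2.51, 2.17 and 2.85 TPM in LIN28B cells with alpelisib, against 7.39, 7.53 and 7.56 TPM in EV cells, and fell by 1.28 (SE 0.15, adjusted p = 2.88e-05). ISG20 stood at 8.62, 12.1 and 9.43 TPM in LIN28B cells with alpelisib, against 22.1, 15.0 and 25.8 TPM in EV cells, and fell by 0.97 (SE 0.19, adjusted p = 0.0016). In all 3 genes the groups did not overlap. OASL, an OAS relative without enzyme activity, fell by 0.83 (SE 0.20, adjusted p = 0.00553), OAS1 by 0.80 (SE 0.07, adjusted p = 2.29e-06), IFIH1 by 0.75 (SE 0.13, adjusted p = 0.000691), IFIT1 by 0.71 (SE 0.16, adjusted p = 0.003) and IRF7 by 0.48 (SE 0.11, adjusted p = 0.00292). IFI6 fell by 0.45 (SE 0.14, adjusted p = 0.023), a call lost without EV replicate 1 or 3 or alpelisib replicate 1 or 2 (0.0621 to 0.129) and under median-of-ratios scaling (0.0992). IFITM2 was the gene that rose, by 0.47 (SE 0.09, adjusted p = 0.000883). IRF9 had a difference of 0.00 (SE 0.10), ISG15 of -0.09 (SE 0.09), RIGI of -0.28 (SE 0.13), STAT2 of -0.27 (SE 0.12), IRF1 of -0.26 (SE 0.20), MX1 of -0.21 (SE 0.15) and IFI27 of 0.40 (SE 0.43). IFITM1 had 0.30 (SE 0.15), and was called without EV replicate 1 (adjusted p = 0.0399). STAT2 was called lower without alpelisib replicate 3 (0.0396), and IFITM3, at 0.16 (SE 0.08), was called higher under median-of-ratios scaling (0.0247).

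LoVo-labelled LIN28B cells stood below LoVo EV in a majority of these genes, far below in a smaller number, with the limit on the identity of the libraries given above. Of 40 genes, 28 were called, 4 higher and 24 lower, where 56.8% of all genes tested were called, 40.3% higher and 16.5% lower. Without XAF1, IFI44 and OAS2, 25 of 37 were called, 4 higher and 21 lower. The median change was -0.53 over the 40 genes and -0.46 over the 37. Under median-of-ratios scaling, which moved the median of all genes to -0.04 from 0.26, the split over all 40 was 2 higher and 28 lower. That split includes XAF1, IFI44 and OAS2, and 25.6% of all genes tested were higher and 28.1% lower there. Interferon-stimulated genes outside the set did not share this direction. Of 30 on that list 10 rose and 5 fell, near the shares of all genes. Under median-of-ratios scaling 9 of them rose and 12 fell. BST2, tetherin, stood at 7.50, 7.58 and 7.28 TPM in LoVo-labelled LIN28B libraries, against 149.6, 175 and 229.9 TPM in LoVo EV, 24.8-fold lower on average, and fell by 4.44 (SE 0.21, adjusted p = 6.53e-11). IFI27, a small membrane protein strongly induced by interferon, stood at 1.63, 0.239 and 3.72 TPM in LoVo-labelled LIN28B, against 113, 83.1 and 59.7 TPM in LoVo EV, and fell by 5.07 (SE 0.43, adjusted p = 5.65e-08). XAF1, a pro-apoptotic factor that passed the filter through LoVo EV alone, stood at 0.433, 0.0544 and 0.0781 TPM in LoVo-labelled LIN28B, against 13.0, 10.3 and 9.26 TPM in LoVo EV. In each of these genes every LIN28B library lay far below every EV library.

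IFI6, which stabilises mitochondria and blocks flavivirus replication, stood at 24.2, 22.5 and 20.1 TPM in LoVo-labelled LIN28B libraries, against 207, 166 and 185 TPM in LoVo EV, 8.35-fold lower on average, and fell by 3.0 (SE 0.14, adjusted p = 4.78e-11). DHX58, the sensor LGP2, stood at 1.10, 0.923 and 0.333 TPM in LoVo-labelled LIN28B, against 13.4, 13.2 and 11.8 TPM in LoVo EV, and fell by 2.98 (SE 0.27, adjusted p = 1.14e-07). MX1, a GTPase that traps viral nucleocapsids, stood at 2.96, 4.81 and 4.28 TPM in LoVo-labelled LIN28B, against 34.2, 33.4 and 40.8 TPM in LoVo EV, and fell by 2.90 (SE 0.15, adjusted p = 1.98e-10). None of these groups overlapped. LGALS3BP stood at 78.4, 68.9 and 65.8 TPM in LoVo-labelled LIN28B, against 279, 293 and 351 TPM in LoVo EV, and fell by 2.10 (SE 0.11, adjusted p = 2.78e-10). ISG15 stood at 119, 139 and 116 TPM in LoVo-labelled LIN28B, against 516, 467 and 428 TPM in LoVo EV, and fell by 1.91 (SE 0.09, adjusted p = 3.49e-11). IFI44, of which the same holds as of XAF1, stood at 0, 0.113 and 0.0725 TPM in LoVo-labelled LIN28B, against 4.52, 3.40 and 3.93 TPM in LoVo EV. IFIT3 fell by 1.92 (SE 0.15, adjusted p = 2.11e-08), IFITM1 by 1.40 (SE 0.15, adjusted p = 6.3e-07), UBE2L6 by 1.18 (SE 0.13, adjusted p = 9.61e-07) and IRF9 by 1.02 (SE 0.10, adjusted p = 3.94e-07). IFIT1 fell by 0.82 (SE 0.16, adjusted p = 0.000262), RIGI by 0.60 (SE 0.13, adjusted p = 0.000705) and IFITM3 by 0.46 (SE 0.08, adjusted p = 6.69e-05).

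OAS1 went the other way. It stood at 42.5, 45.0 and 44.8 TPM in LoVo-labelled LIN28B libraries, against 22.2, 20.7 and 24.0 TPM in LoVo EV, and rose by 0.96 (SE 0.07, adjusted p = 2.04e-08). IFITM2 stood at 478, 508 and 482 TPM in LoVo-labelled LIN28B, against 298, 306 and 294 TPM in LoVo EV, and rose by 0.71 (SE 0.09, adjusted p = 2.8e-06). Neither pair overlapped. IRF7 stood at 57.3, 60.2 and 62.3 TPM in LoVo-labelled LIN28B, against 42.8, 36.5 and 32.2 TPM in LoVo EV, and rose by 0.68 (SE 0.11, adjusted p = 3.83e-05), a call lost under median-of-ratios scaling (adjusted p = 0.0591). OAS3 rose by 0.43 (SE 0.10, adjusted p = 0.00224), a call lost under that scaling (0.568) and, at a change of 0.29, when LoVo EV replicates 1 and 2 were left out together for their share of mitochondrially encoded transcripts (0.128), which leaves LoVo EV with 1 library. IFIH1 had a change of 0.14 (SE 0.13), STAT2 of 0.04 (SE 0.12) and IRF1 of -0.46 (SE 0.20). IRF1 was called lower without LoVo EV replicate 2 (0.0399), without LIN28B replicate 3 (0.0338) and under median-of-ratios scaling (0.00286).

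**Figure D4:**
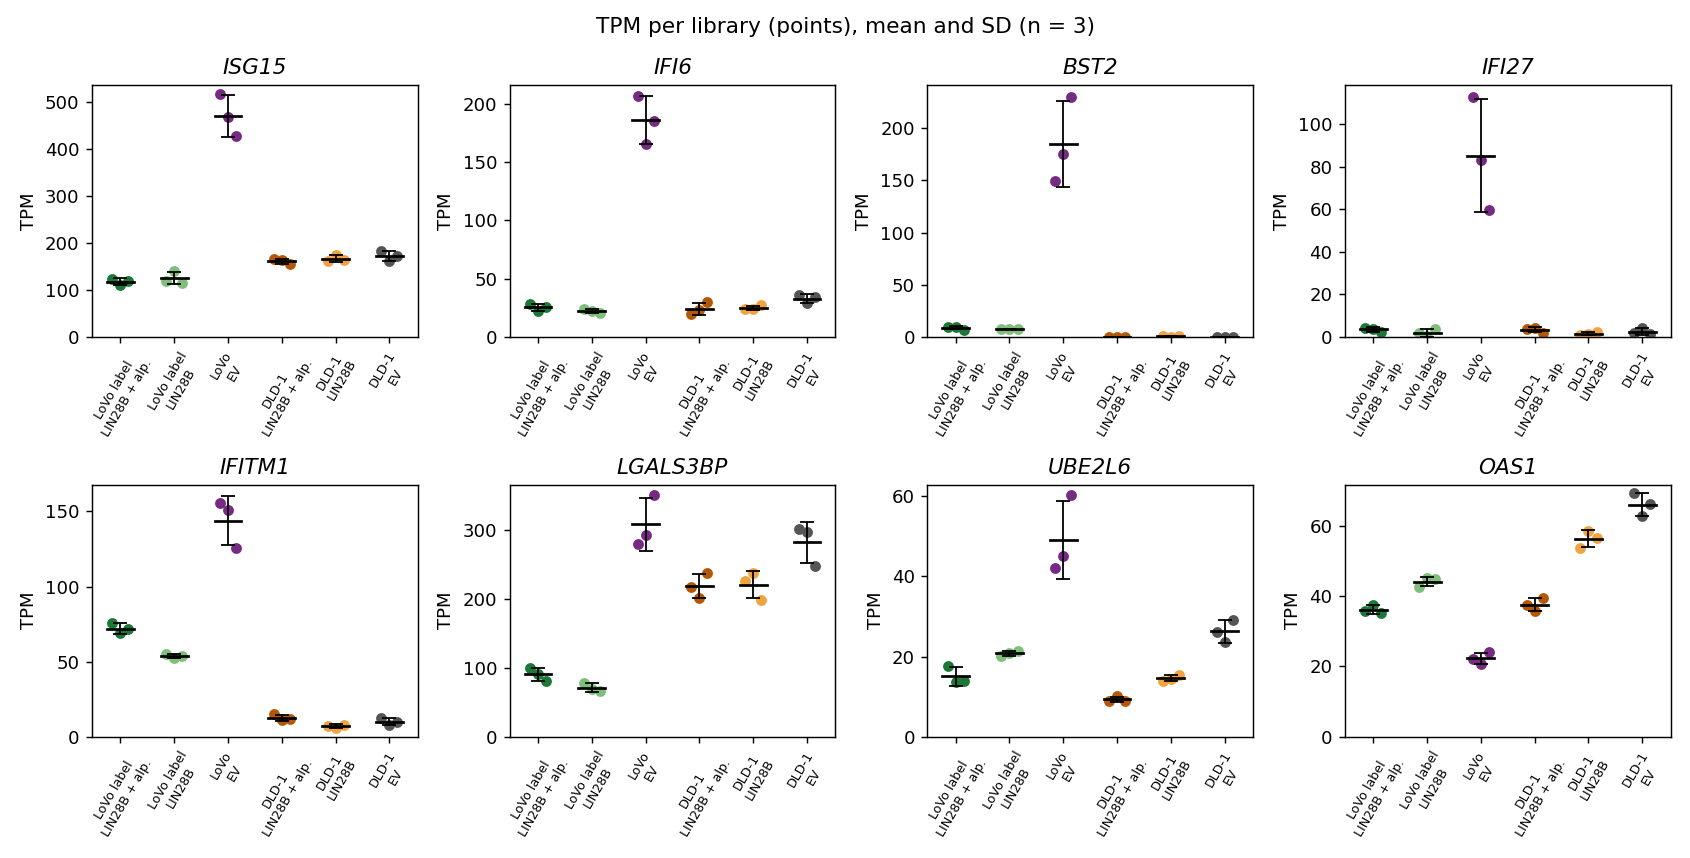
TPM of 8 genes in each library (points), with mean and SD (bars, n = 3 per group), on linear axes from 0. ISG15, IFI6, BST2, IFI27 and IFITM1 are highest in LoVo EV, where OAS1 is lowest, and UBE2L6 is lowest in DLD-1 LIN28B cells with alpelisib.

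Other parts of the pathway differed between the same libraries. IFNE, an epithelial type I interferon, stood at 1.32, 1.61 and 0.513 TPM in LoVo-labelled LIN28B libraries, against 9.67, 9.45 and 7.52 TPM in LoVo EV, and fell by 2.23 (SE 0.22, adjusted p = 3.02e-07). It alone of 10 interferon genes passed the filter, and IFNB1, IFNA2, IFNW1, IFNL1 and IFNG were listed at 0 in all 18 libraries. Of 11 receptors, kinases and STATs 5 rose and none fell, and under median-of-ratios scaling 4 rose and 4 fell. Over all genes tested 40.3% rose and 16.5% fell, and under median-of-ratios scaling 25.6% rose and 28.1% fell. The shares of receptors and of sensors that rose before that scaling were near 40.3%. JAK1 rose by 1.31 (SE 0.14, adjusted p = 5.52e-07) and IFNAR1 by 1.25 (SE 0.14, adjusted p = 9.95e-07). Of 13 sensors and adaptors 6 rose and 2 fell, and under that scaling 2 rose and 7 fell, with CGAS at a fall by 2.32 (SE 0.17, adjusted p = 1.23e-08) and EIF2AK2 at a rise by 1.50 (SE 0.18, adjusted p = 2e-06). STING1 had a change of 0.08 (SE 0.11). Of 9 negative regulators 6 rose and 2 fell, and under that scaling 3 rose and 3 fell. The 2 that fell before that scaling were the inhibitors SOCS3, by 1.96 (SE 0.17, adjusted p = 6.65e-08), and SOCS1, by 1.42 (SE 0.23, adjusted p = 7.07e-05). Of 15 genes of MHC class I and peptide loading 1 rose and 8 fell, and under that scaling 1 rose and 13 fell, with PSMB9 at a fall by 2.47 (SE 0.15, adjusted p = 9.06e-10). The 12 leukocyte markers summed to 5.67 to 8.50 TPM in LoVo-labelled LIN28B libraries, against 11.7 to 19.4 TPM in LoVo EV, the larger share of it CD68, with PTPRC, CD3E and MS4A1 listed at 0 in all 3 LoVo EV libraries, and their part in the differences was not tested. After rescaling without mitochondrially encoded genes 30 of 41 genes were called, 4 higher and 26 lower. Over all genes tested there, 53.5% were called, 31.6% higher and 21.8% lower. The 41 hold XAF1, IFI44 and OAS2, whose difference from LoVo EV was built into their choice. They also hold IFI44L, a gene added by the rescaling and highest in LoVo EV, and no count without these was made.

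LoVo-labelled LIN28B cells with alpelisib had 27 of 40 genes called against LoVo EV, 3 higher and 24 lower, where 46.8% of all genes tested were called, 32.2% higher and 14.7% lower. Over the 37 genes without XAF1, IFI44 and OAS2, 24 were called, 3 higher and 21 lower. Of 30 other interferon-stimulated genes outside the set 10 were higher and 7 lower. Under median-of-ratios scaling 7 of them were higher and 12 lower, where 22.1% of all genes tested were higher and 23.7% lower. The LoVo EV libraries are those of the comparison above. BST2 stood at 9.76, 9.36 and 7.04 TPM with alpelisib, against 149.6, 175 and 229.9 TPM in LoVo EV, and fell by 4.25 (SE 0.21, adjusted p = 9.35e-11). IFI27 fell by 4.24 (SE 0.43, adjusted p = 5.25e-07), IFI6 by 2.82 (SE 0.14, adjusted p = 8.39e-11), MX1 by 2.45 (SE 0.15, adjusted p = 1.45e-09), ISG15 by 1.99 (SE 0.09, adjusted p = 1.74e-11), IFIT1 by 1.67 (SE 0.16, adjusted p = 1.9e-07) and UBE2L6 by 1.64 (SE 0.13, adjusted p = 2.76e-08). HERC6 rose by 1.11 (SE 0.17, adjusted p = 3.84e-05), IFITM2 by 0.78 (SE 0.09, adjusted p = 1.22e-06) and OAS1 by 0.67 (SE 0.07, adjusted p = 1.37e-06). IRF9 fell by 0.39 (SE 0.10, adjusted p = 0.00501), IFITM1 by 0.98 (SE 0.15, adjusted p = 3.96e-05), IFITM3 by 0.35 (SE 0.08, adjusted p = 0.00113) and RIGI by 0.83 (SE 0.13, adjusted p = 5.34e-05). IFIH1 fell by 0.37 (SE 0.13, adjusted p = 0.0322), a call lost without LoVo EV replicate 3 or alpelisib replicate 2 or 3 (0.0635 to 0.165). IRF1 had a difference of -0.23 (SE 0.20), IRF7 of 0.17 (SE 0.11) and STAT2 of 0.17 (SE 0.12). IRF7 was called higher without LoVo EV replicate 1 (0.0474) and STAT2 without alpelisib replicate 3 (0.0371).

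The LIN28B effect differed between the LoVo label and DLD-1 for 21 of 40 genes, 4 higher and 17 lower, where 42.7% of all genes tested were called, 30.4% higher and 12.4% lower. Over the 37 genes without XAF1, IFI44 and OAS2, 18 were called, 4 higher and 14 lower. The difference was -4.85 for BST2 (SE 0.30), -4.70 for IFI27 (SE 0.61), -1.86 for ISG15 (SE 0.12) and 1.18 for OAS1 (SE 0.10). Under median-of-ratios scaling the split over all 40 was 1 higher and 21 lower. That split includes XAF1, IFI44 and OAS2, and 19.1% of all genes tested were higher and 20.6% lower there. Of 30 other interferon-stimulated genes outside the set 12 were higher and 5 lower, and 8 and 8 under that scaling.

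The EV cells of the 2 lines differed in most of the set, as they did in most of all genes tested. Of 40 genes, 27 were called in LoVo EV against DLD-1 EV, 16 higher and 11 lower, where 55.5% of all genes tested were called, 17.3% higher and 38.2% lower. Over the 37 genes without XAF1, IFI44 and OAS2, 24 were called, 13 higher and 11 lower. Under median-of-ratios scaling, which moved the median of all genes to 0.05 from -0.20, the split over all 40 was 21 higher and 5 lower. That split includes XAF1, IFI44 and OAS2, and 28.1% of all genes tested were higher and 25.3% lower there. Of 30 other interferon-stimulated genes outside the set 6 were higher and 17 lower, and 10 and 12 under that scaling. BST2 stood at 149.6, 175 and 229.9 TPM in LoVo EV, against 0.361, 0 and 0 TPM in DLD-1 EV, where 2 of 3 libraries list it at 0, so no fold is given. IFITM1 stood at 156, 151 and 125 TPM in LoVo EV, against 12.5, 8.06 and 9.78 TPM in DLD-1 EV, 14.2-fold higher on average, and was higher by 3.72 (SE 0.15, adjusted p = 7.21e-12). IFI27 was higher in LoVo EV by 4.71 (SE 0.43, adjusted p = 1.37e-07), MX1 by 2.88 (SE 0.15, adjusted p = 2e-10) and ISG15 by 1.44 (SE 0.09, adjusted p = 8.38e-10). IRF9 stood at 33.4, 35.8 and 35.9 TPM in LoVo EV, against 20.7, 18.7 and 19.5 TPM in DLD-1 EV, and was higher by 0.80 (SE 0.10, adjusted p = 5.8e-06). OAS1 stood at 22.2, 20.7 and 24.0 TPM in LoVo EV, against 69.1, 62.7 and 66.1 TPM in DLD-1 EV, and was lower by 1.53 (SE 0.07, adjusted p = 7.28e-11). HERC6 was lower by 0.93 (SE 0.17, adjusted p = 0.000175), OAS3 by 0.68 (SE 0.10, adjusted p = 4.11e-05) and IFIH1 by 0.62 (SE 0.13, adjusted p = 0.000752), the last at -0.42 and not called with 1 LoVo EV library, replicate 3 (0.0883). Of 11 receptors, kinases and STATs 1 was higher and 7 lower, and of 13 sensors and adaptors 2 were higher and 3 lower. In the pathway, IFNE was higher in LoVo EV by 2.80 (SE 0.22, adjusted p = 2.37e-08) and CGAS by 2.00 (SE 0.17, adjusted p = 7.36e-08), and JAK1 was lower by 1.63 (SE 0.14, adjusted p = 4.93e-08) and IFNAR1 by 1.24 (SE 0.14, adjusted p = 1.18e-06).

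Genes with and without the response element core were found on both sides of this difference. Of 21 tested genes with the core in a window, 10 were higher and 6 lower in LoVo EV, with a median difference of 0.35. Of 11 tested genes with a window and no match, 4 were higher and 3 lower, with a median of -0.26. These counts include IFI44 among the 21 and XAF1 among the 11. BST2, IFI27, IFI6 and ISG15, each with 2 matches in the stretch shown above, were higher in LoVo EV, and so were IFI35, UBE2L6 and IRF9 with no match. OAS3 and IFIH1 held the core and were lower. With alpelisib in DLD-1, 1 of the 21 rose and 4 fell, and 1 of the 11 rose and 3 fell.

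**Figure D5:**
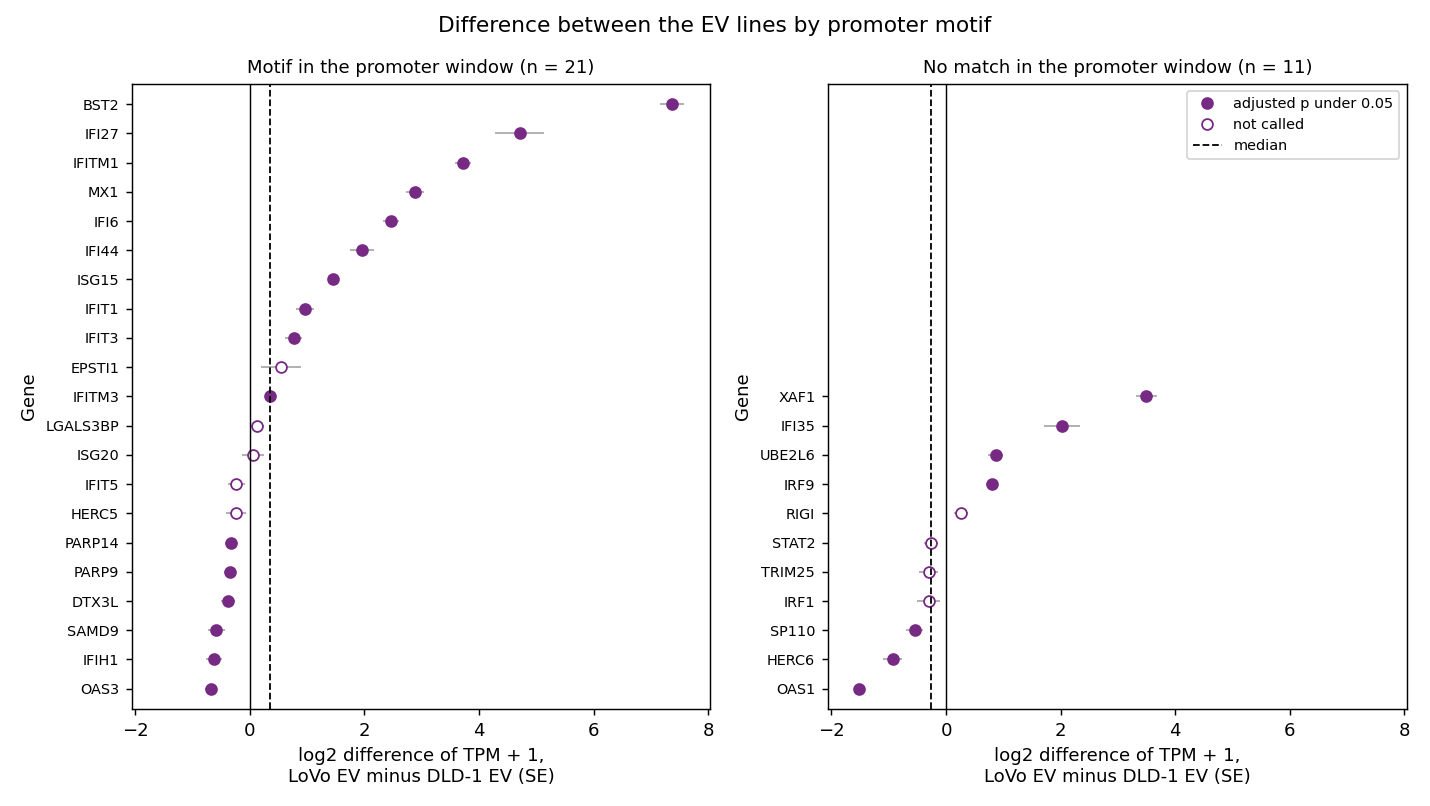
Difference between LoVo EV and DLD-1 EV on the log2(TPM + 1) scale (x axis, bars are SE) for 21 genes with the response element core in a promoter window (left) and 11 with no match (right), with dashed lines at the medians of 0.35 and -0.26. Both panels hold filled points, at an adjusted p under 0.05, on both sides of 0, and BST2, IFI27 and IFITM1 lie farthest right.

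LoVo-labelled LIN28B cells differed from DLD-1 LIN28B cells in 18 of 40 genes, 6 higher and 12 lower, where 14% of all genes tested were called, 7.96% higher and 6.02% lower. IFITM1 stood at 55.0, 52.2 and 53.5 TPM in LoVo-labelled LIN28B cells, against 7.28, 5.45 and 7.91 TPM in DLD-1 LIN28B cells, and was higher by 2.80 (SE 0.15, adjusted p = 1.68e-09). BST2 stood at 7.50, 7.58 and 7.28 TPM in LoVo-labelled LIN28B cells, against 0.442, 0.124 and 0.986 TPM in DLD-1 LIN28B cells, and was higher by 2.52 (SE 0.21, adjusted p = 3.74e-07). LGALS3BP stood at 78.4, 68.9 and 65.8 TPM in LoVo-labelled LIN28B cells, against 226, 237 and 199 TPM in DLD-1 LIN28B cells, and was lower by 1.62 (SE 0.11, adjusted p = 4.53e-08). None of these groups overlapped. With any 1 of these libraries left out, 12 to 14 genes were called. With alpelisib in both, 12 of 40 genes differed, 6 higher and 6 lower under the LoVo label, where 19.1% of all genes tested were called, 11.5% higher and 7.58% lower. BST2 was higher by 3.07 (SE 0.21, adjusted p = 2.85e-08), IFITM1 was higher by 2.44 (SE 0.15, adjusted p = 6.61e-09) and LGALS3BP was lower by 1.26 (SE 0.11, adjusted p = 6.59e-07).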

How the data were processed

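Libraries were grouped by their labels. Per the labels' protocols, poly(A) RNA was selected before library preparation with a NEBNext kit. Per the file headers, the deposited values are TPM for each gene and library. hg38, STAR 2.7.10, Picard, HTSeq and DESeq2 appear in the submitters' processing notes with no role or order, and annotation, gene lengths and strand are not given in the sources used here. Depth is unknown, because TPM keeps no record of it, and no counting interval is given. Since TPM fixes each library's total, a change in abundant transcripts shifts all other values.

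Symbols were matched for 61757 of 61806 identifiers. Log2(TPM + 1) of the genes that passed the filter was fitted with limma 3.58.1 (R 4.3.3, eBayes with trend) in 1 model of all 6 groups, with 12 residual and 3.98 prior degrees of freedom, and two-sided p-values were adjusted over all of these genes (Benjamini-Hochberg). Changes on this scale understate those of low genes. The code was tested on simulated data. The members and lists were chosen with earlier results of these data known. By the rule for named genes, values per library go to the largest called rises and falls without overlap of groups and to a list of key members, and of each pathway list the genes with the smallest p are named, apart from some that are not reported here. Of 140 list symbols 139 were matched. Alternatives were median-of-ratios scaling, rescaling without mitochondrially encoded genes, pseudocounts of 0.1 and 0.5, no filter or one at 5 TPM, a fit of only the groups compared, no trend, a replicate block, and leaving out libraries.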

Additional observations from a re-analysis of the deposited data

Results flagged for a closer look

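The change with LIN28B differed between the LoVo label and DLD-1 in 21 of 40 genes, where 42.7% of all genes tested were called (limma, LoVo label minus DLD-1, log2 scale). The 9 given here are those with the largest called differences each way, at a mean of 2 TPM or more in some group. The difference was -4.85 for BST2 (adjusted p = 4.32e-09), -4.70 for IFI27 (1.45e-05), -3.26 for XAF1 (1.29e-07), -2.84 for MX1 (4.87e-08) and -2.63 for IFI6 (4.05e-08). On the other side it was 1.18 for OAS1 (2.74e-07), 0.81 for IRF7 (0.000395), 0.67 for MX2 (0.0205) and 0.64 for IFITM2 (0.000457). The call was lost under median-of-ratios scaling for MX2 (adjusted p 0.23), IRF7 (0.0554) and IFITM2 (0.0975). That of MX2 was also lost without LoVo EV replicate 2 (0.0576), LoVo-labelled LIN28B replicate 3 (0.0607) or DLD-1 LIN28B replicate 3 (0.0563). XAF1 passed the filter through LoVo EV alone and is under 1 TPM in all other libraries, so its difference was built into its choice. All 9 rest on libraries labelled LoVo LIN28B, in which LIN28B and the identity of the cells cannot be told apart.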

How the results depend on the processing

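The numbers of genes called stayed within 1.5 times of those reported in all comparisons and settings run, apart from the following. For LIN28B against EV in DLD-1, 3 genes were called, 1 with a replicate block and 1 to 2 without any 1 library, with UBE2L6 called in all of them. Calls over all genes tested also fell there, from 469 to 170 with the block and to 185 to 228 without any 1 library. For the difference of the alpelisib effect, 0 were called, 1 in the fit of only the groups compared and 0 without any 1 library. Leaving out 1 library gave 24 to 28 genes for LIN28B against EV under the LoVo label, 9 to 13 for alpelisib in DLD-1, 12 to 14 for alpelisib under the LoVo label, 10 to 14 and 22 to 27 for LIN28B with alpelisib against EV in DLD-1 and under the LoVo label, 16 to 21 for the difference of the LIN28B effect, 21 to 27 for LoVo EV against DLD-1 EV, and 12 to 14 and 11 to 13 for LoVo-labelled against DLD-1 LIN28B cells without and with alpelisib. Over all genes tested, fewer were called in each of these fits than with all libraries. The exception was the difference of the LIN28B effect without LoVo EV replicate 3. Under median-of-ratios scaling 8 of the 40 genes had the opposite sign in LoVo-labelled LIN28B cells against LoVo EV. Of the genes described, 2 were called with the opposite sign, STAT2 (log2 change -0.33, adjusted p = 0.022) and STING1 (-0.29, adjusted p = 0.0205), which follows the shift of all genes under that scaling. The values showed no pairing of the samples by replicate number. Deviations of same-numbered libraries correlated at -0.302 to 0.040 under the LoVo label and -0.080 to 0.119 in DLD-1. Taken from the means of groups of 3 libraries, these deviations cannot exclude a shared culture or preparation. With the block, MX2 (adjusted p 0.0672) and IRF9 (0.0852) were not called for LIN28B in DLD-1, nor were PSMB9 (0.0663), PSMB8, HLA-B, GBP3 and HLA-C (0.127, the highest of these), and neither were RIGI (0.0848) for alpelisib in DLD-1, or MX1 (0.0553) and LGALS3BP (0.0512) for alpelisib under the LoVo label, or SOCS1 (0.114) for the difference of the alpelisib effect. Depth is unknown, so that genes listed at 0 cannot be given a limit.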
